A study of Mus musculus with 18 samples.

Results

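The comparison described here set macrophages that carried the T169A change in Ripk1 and had received lipopolysaccharide (LPS) together with 5z7 for 2 hours against unstimulated macrophages of the same genotype. It gives the change with LPS and 5z7 together, in which effects of LPS and of 5z7 itself cannot be told apart. Its members were the 3 T169A LPS/5z7 libraries, numbered 12, 15 and 18, and the 3 T169A unstimulated libraries, numbered 10, 13 and 16, chosen by the group named in their deposited columns, so that 6 of the 18 libraries of the series were compared over 13068 genes. The other libraries belong to T169A cells with LPS alone (11, 14 and 17) and to C57BL/6J cells, called B6, that were unstimulated, had LPS, or had LPS/5z7, with 3 libraries in each group. All cells were bone marrow-derived macrophages of mice, cultured for 7 days in complete RPMI medium that held 20% fetal bovine serum and, as a source of the growth factor M-CSF, 30% L929 supernatant. They were grown on dishes without tissue culture treatment and moved to treated plates before stimulation. T169A mice carry a threonine-to-alanine change in the kinase RIPK1, and the labels name no promoter or Cre. The name 5z7 is not explained in the labels; it commonly stands for the TAK1 inhibitor (5Z)-7-oxozeaenol, and no library had 5z7 without LPS.

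LPS is sensed by the receptor TLR4 with its partners CD14 and MD-2. The adaptor MyD88 leads through TAK1 to the IKK kinases, which release NF-kB from its IkB inhibitors, and to the MAP kinases, which act on AP-1 and on immediate early genes. The adaptor TRIF leads to the interferon regulatory factor IRF3, to interferon-beta and, through the interferon receptor, to a large set of antiviral genes. RIPK1 sits in the TNF receptor and TRIF complexes, where it can pass on NF-kB signals or start cell death.

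The 6 libraries held 17 to 28.5 M counts, so that 3 counts, taken as the floor, correspond to 0.114 to 0.184 counts per M (CPM; levels below are TMM-scaled CPM). Lyz2, the lysozyme gene of macrophages, stood at 25400, 25100 and 27700 CPM unstimulated and 28600, 31200 and 31800 CPM with LPS/5z7. Marker lists of 9 other cell types summed to at most 59.5 CPM (neutrophils) beside 31500 to 38200 CPM for macrophage markers. Lyz2 made up most of the macrophage sum. Of the 8 macrophage markers 1 was called higher and 3 lower, beside 28.1% and 27.5% of all genes tested. Conventional dendritic cell markers summed to 0.245 to 0.701 CPM unstimulated and 2.08 to 3.43 CPM with LPS/5z7 and T cell markers to 2.98 to 4.25 and 5.48 to 6.47 CPM. B cell markers summed to 23 to 25.9 CPM and 19.7 to 22.9 CPM, mostly Ighm, with Cd79a and Pax5 at 0 in all 6 libraries. NK cell markers summed to 0.0393 to 0.0412 CPM and 0.256 to 1.89 CPM, with Gzma, Ncr1 and Prf1 at 0 in all 6 libraries, and Klrk1, the 1 member tested, was called higher. The part of these cell types in the results was not tested. Unstimulated library 10 had higher levels of many inflammatory genes than 13 and 16. Among the LPS/5z7 libraries, 12 differed from 15 and 18 by 20.7 and 20.3 times the variance of counting (chi-square over degrees of freedom), against 2.89 between 15 and 18, and had higher levels of interferon genes. Larger departures occurred in groups used further below, with 51.8 between T169A LPS libraries 11 and 17 and with 81.3 and 101 between B6 unstimulated library 7 and libraries 1 and 4. The labels do not tell whether replicate libraries stem from different mice or dishes, so each p-value reflects the spread between these samples alone, which may be technical. In bulk RNA, fewer cells of a type and less RNA per cell cannot be told apart.

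Over all genes, 3678 were called higher with LPS/5z7 (28.1% of those tested) and 3591 lower (27.5%), by edgeR's quasi-likelihood test with a Benjamini-Hochberg adjusted p under 0.05. With TMM scaling, changes of 4-fold or more were mostly increases. At least 4-fold higher were 777 genes (5.95%) and at least 4-fold lower 390 (2.98%), and at least 16-fold 247 (1.89%) and 42 (0.321%). The median log2 fold change over all genes was 0.00, because TMM scaling sets the bulk of the genes to no change. With library size alone that median moved by −0.42, and 1975 genes were called higher and 6999 lower. Called and at least 2-fold, 1594 genes were higher and 1519 lower with TMM, against 1114 and 2886 with library size alone. Directions of small changes are thus relative to the bulk of the genes, and the balance of 2-fold changes depends on the scaling. Without library 12, 3241 genes were called higher and 3216 lower, and without library 10 the counts were 3454 and 3316. The plot of fold change against level shows the genes named below among all genes tested.

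**Figure D1:**
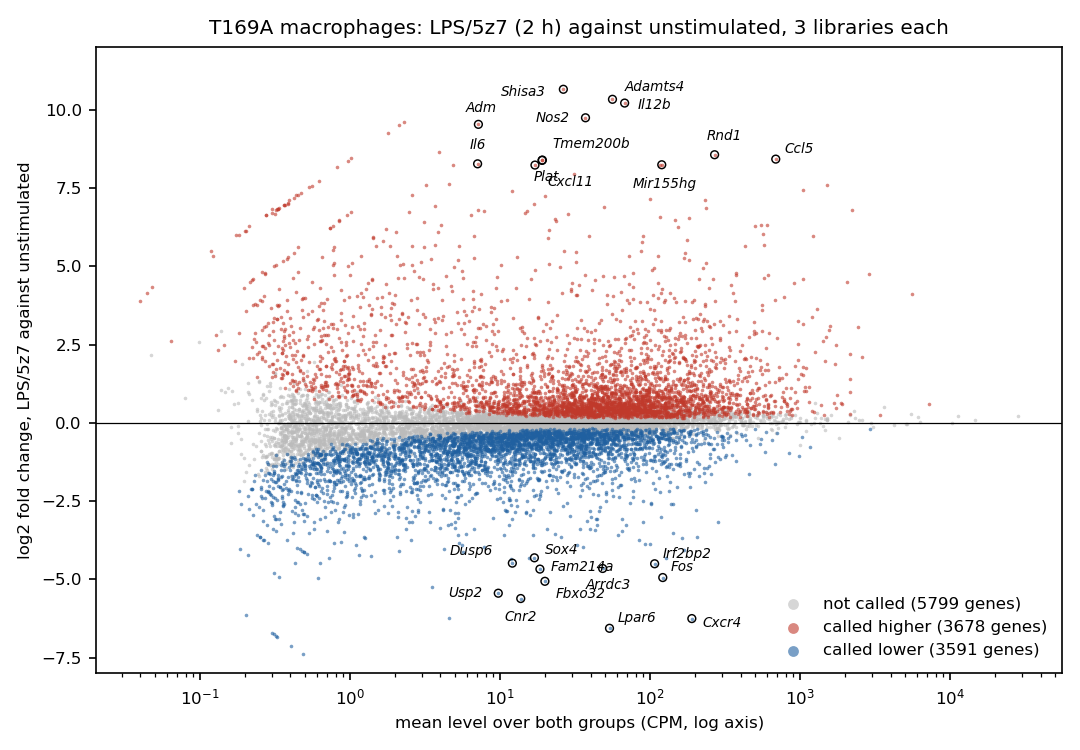
Each point is 1 of 13068 genes, with the mean of the 3 unstimulated and 3 LPS/5z7 T169A libraries in CPM on the x axis (log scale) and the log2 fold change of LPS/5z7 against unstimulated on the y axis. Genes called higher (3678) are red and genes called lower (3591) blue, and the named genes with the largest changes are circled; the points above 4 outnumber those below −4.

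The genes with the largest increases, among those called, without overlap between the groups and at 10 CPM or more, were of different kinds. Il12b encodes the p40 chain of the cytokines interleukin-12 and interleukin-23. It was at 0.247, 0.0393 and 0.0408 CPM unstimulated and at 154, 124 and 126 CPM with LPS/5z7. Nos2, the inducible nitric oxide synthase gene, was at 0.0412, 0.118 and 0.0816 CPM and then at 80.4, 67.1 and 74.4 CPM. Both went from near the floor to a level clear of it in all 3 libraries, and the log2 fold changes were 10.21 ± 0.29 and 9.74 ± 0.29 (± SE, adjusted p = 3.23e-14 and 4.8e-14, edgeR). Adamts4, a protease of the extracellular matrix, rose by 10.33 ± 0.18, and Rnd1, a small GTPase that loosens the actin cytoskeleton, rose from 1.98, 1.37 and 0.897 CPM to 548, 526 and 534 CPM (8.56 ± 0.21). Ccl5, a chemokine for T cells and monocytes, rose from 7.3, 2.94 and 1.79 CPM to 1430, 1300 and 1380 CPM (8.42 ± 0.41), and Mir155hg, the host transcript of the microRNA miR-155, from 1.61, 0.432 and 0.326 CPM to 241, 244 and 229 CPM (8.24 ± 0.43). Plat (tissue plasminogen activator, 8.39 ± 0.26), Tmem200b (8.38 ± 0.17) and Cxcl11, a ligand of CXCR3 (8.23 ± 0.31), rose in the same range. Adamts4 and Nos2 had 6 counts over the unstimulated libraries, and Il12b, Plat, Tmem200b and Cxcl11 had 8. For these genes the SE is narrower than the counting error. The 95% counting intervals of the fold were 627 to 3720 for Adamts4, 424 to 2520 for Nos2 and 646 to 2950 for Il12b. They were 175 to 803 for Plat, 177 to 810 for Tmem200b and 167 to 765 for Cxcl11. For genes with 1 to 3 counts over the unstimulated libraries, only a ratio of summed counts with its 95% counting interval is given. Shisa3 stood at 1920-fold (532 to 15900), Adm, the adrenomedullin gene, at 1010-fold (182 to 40100) and Il6 at 377-fold (129 to 1830).

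The genes with the largest decreases include genes of receptors and of regulators. Cxcr4, the receptor for the chemokine CXCL12, was at 360, 383 and 380 CPM unstimulated and at 4.81, 4.92 and 5.02 CPM with LPS/5z7 (−6.25 ± 0.13). Lpar6, a receptor for lysophosphatidic acid, went from 91.3, 112 and 114 CPM to 1.29, 1.18 and 0.796 CPM (−6.56 ± 0.21). The groups were far apart, with each library of 1 group within 1.7-fold of the others of that group. Cnr2, which encodes cannabinoid receptor CB2 (−5.61 ± 0.17), Usp2, a deubiquitinase (−5.44 ± 0.29), Fbxo32, an E3 ligase subunit (−5.06 ± 0.27), Arrdc3, an arrestin-like adaptor (−4.65 ± 0.15), and the transcription factor Sox4 (−4.31 ± 0.16) fell as well. So did Fos, Dusp6, Irf2bp2, a repressor partner of IRF2 (−4.50 ± 0.19), and Fam214a (−4.67 ± 0.16). The largest adjusted p among the decreases of this paragraph was 5.03e-11 (edgeR quasi-likelihood test).

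The lists of pathway genes were read by how many members were called, beside the 28.1% higher, 27.5% lower and median of 0.00 over all genes tested. The bar plot of the 43 lists orders them by median log2 fold change.

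**Figure D2:**
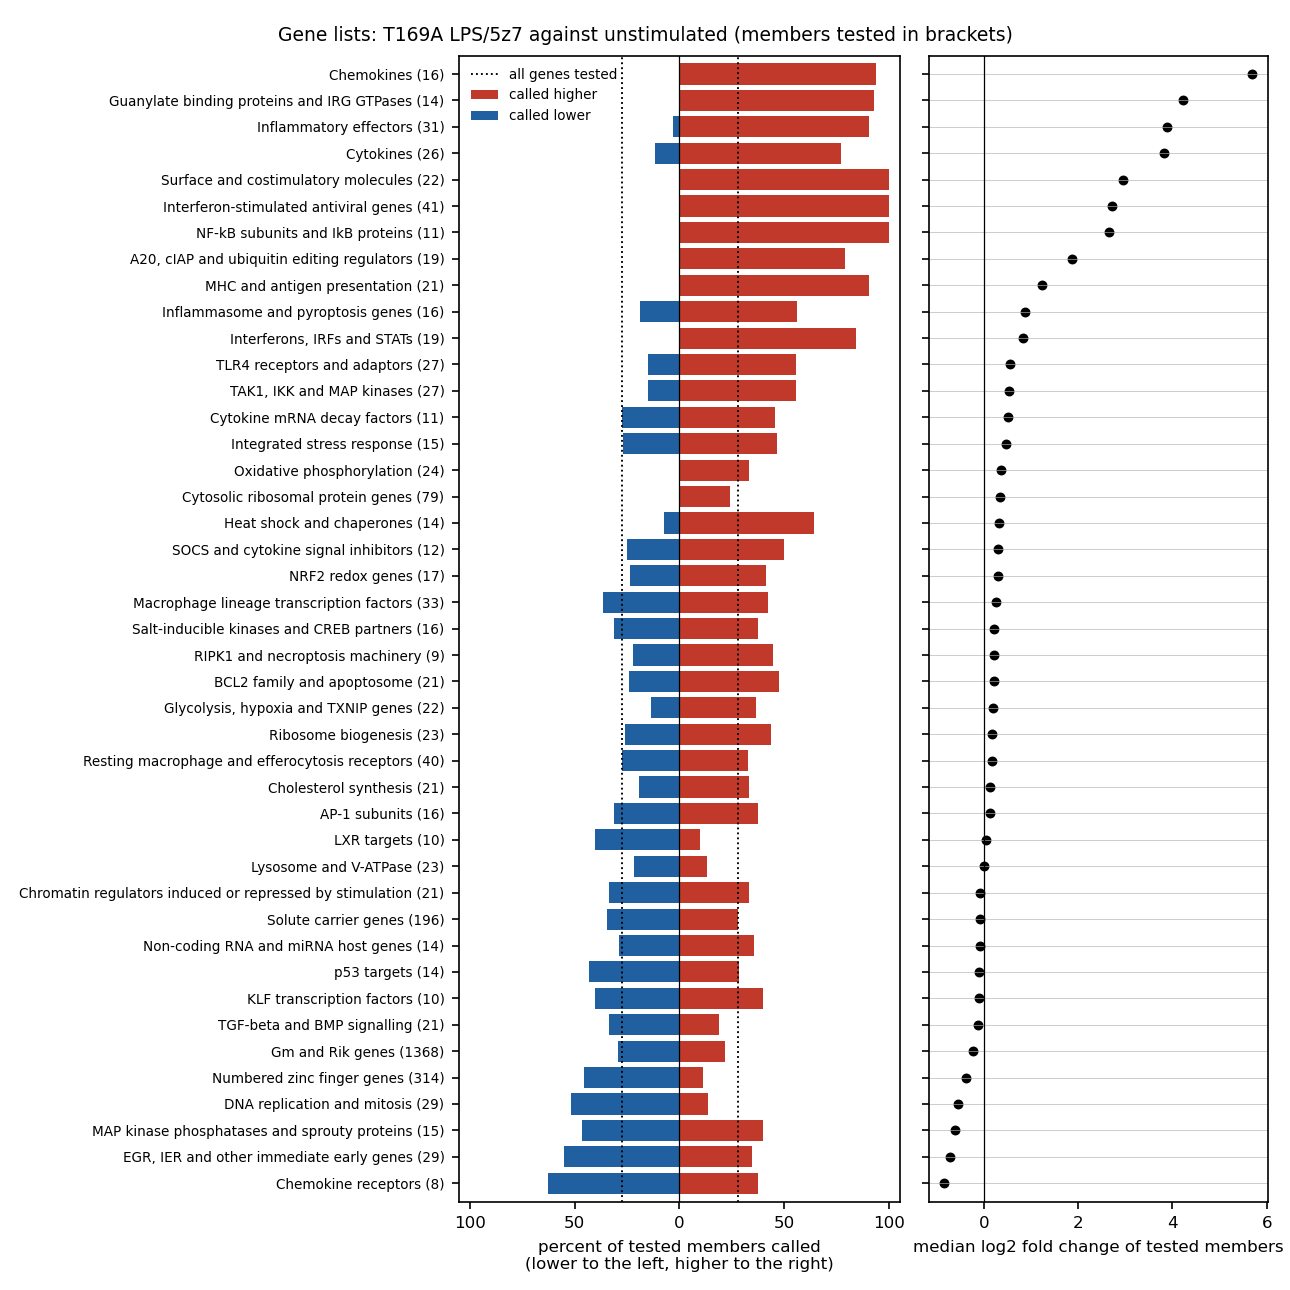
Left, percent of the tested members of each of 43 gene lists called higher (red, to the right) or lower (blue, to the left) with LPS/5z7 than unstimulated in T169A, with dotted lines at the 28.1% and 27.5% of all genes; right, the median log2 fold change of each list. Chemokines are at the top with a median of 5.69 and chemokine receptors at the bottom with −0.84.

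Among receptors and adaptors of the TLR4 pathway 15 of 27 tested members rose and 4 fell, with a median of 0.55 (12 higher and 9 lower with library size alone). Cd14, the LPS co-receptor, rose from 599, 467 and 507 CPM to 2880, 2970 and 2970 CPM (2.49 ± 0.13) and Myd88 from 88.2, 82.8 and 81.2 to 311, 282 and 277 CPM (1.79 ± 0.09). Ticam2, the adaptor TRAM that links TLR4 to TRIF, rose from 28, 29.3 and 29 to 78, 92.6 and 100 CPM (1.65 ± 0.09). Tlr4 itself fell, from 99.9, 93.7 and 87.9 to 37.2, 26.2 and 24.9 CPM (−1.67 ± 0.26, adjusted p = 3.58e-05, edgeR). Receptor and co-receptor thus moved in opposite directions, with no overlap between the groups for either. Peli1, an E3 ligase of the pathway, rose by 3.33 ± 0.17, while Irak4, the kinase next to MyD88 (−0.43 ± 0.08), and Tlr13, a receptor for bacterial RNA (−0.84 ± 0.17), fell.

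Among the kinases from TAK1 to the MAP kinases 15 of 27 rose and 4 fell, with a median of 0.53 (12 higher and 9 lower with library size alone). Map3k7, which encodes TAK1, was not called, at 63.9, 61.4 and 57.3 CPM unstimulated and 73.7, 65.4 and 68.1 CPM with LPS/5z7 (0.18 ± 0.12, adjusted p = 0.218, edgeR). Its partner Tab1 fell from 28.3, 28.2 and 27.9 to 7.38, 8.66 and 8.15 CPM (−1.81 ± 0.13). Mapkapk2, a kinase under p38 that stabilises cytokine mRNAs, rose from 329, 264 and 269 to 1750, 1590 and 1620 CPM (2.52 ± 0.09). Map3k8, the ERK pathway kinase TPL2 (2.64 ± 0.13), Map3k5, the stress kinase ASK1 (2.38 ± 0.10), and Tank, an adaptor of the IKK-related kinases (2.04 ± 0.13), rose too, and Map3k1 fell (−1.15 ± 0.11). The MAP kinase gene Mapk3 was not called (0.12 ± 0.11).

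All 11 NF-kB subunits and IkB proteins rose, with a median of 2.66, also with library size alone. Nfkbia, the inhibitor IkB-alpha and a direct NF-kB target, was at 277, 180 and 174 CPM unstimulated and at 1900, 1870 and 1910 CPM with LPS/5z7 (3.17 ± 0.16, adjusted p = 2.97e-11, edgeR). Nfkbiz, a nuclear IkB that opens secondary response genes, rose from 58.2, 39.2 and 36.1 to 1110, 1090 and 1120 CPM (4.64 ± 0.18). The LPS/5z7 libraries were nearly level with each other for both genes and far above the highest unstimulated library. The subunit genes Nfkb2 (2.74 ± 0.11) and Nfkb1 (2.38 ± 0.11) rose, as did Nfkbib, another IkB gene (2.95 ± 0.14). Of 19 regulators around A20, the cIAPs and the linear ubiquitin ligase, 15 rose and 0 fell, with a median of 1.88 (12 higher and 2 lower with library size alone). Tnfaip3, which encodes A20, rose from 117, 70.6 and 63.9 to 1500, 1210 and 1090 CPM (3.92 ± 0.26), Traf1, an adaptor of TNF receptors, from 10.7, 6.44 and 8.32 to 325, 332 and 320 CPM (5.26 ± 0.16), and Tnfaip2 reached 10000, 10800 and 10900 CPM from 756, 533 and 531 (4.12 ± 0.17). Rnf31, the catalytic subunit of the linear ubiquitin ligase, rose by 2.02 ± 0.10, whereas its partner Rbck1 (0.13 ± 0.09) and Xiap (0.44 ± 0.24) were not called.

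Promoter sequences of 4 genes that rose are printed to show where letters of the NF-kB motif (kappaB: GGGA, any 4 bases, CC) and of the interferon motif (ISRE: GAAA, any 2 bases, GAAA) lie. They are the 250 bases before the gene start on the gene's strand, from RefSeq on GRCm38.p6, an older build than the GRCm39 of the counts. Capitals mark matches on either strand, and the genes were chosen after their values were seen. Among 32851 windows of the same length from RefSeq, the kappaB letters are in 17.6% and the ISRE letters in 2.98%. The windows are Nfkbia at chr12:55492648-55492897 (minus strand), Cxcl10 at chr5:92348890-92349139 (minus strand), Ifit1 at chr19:34640639-34640888 (plus strand) and Gbp5 at chr3:142496684-142496933 (plus strand).
Nfkbia: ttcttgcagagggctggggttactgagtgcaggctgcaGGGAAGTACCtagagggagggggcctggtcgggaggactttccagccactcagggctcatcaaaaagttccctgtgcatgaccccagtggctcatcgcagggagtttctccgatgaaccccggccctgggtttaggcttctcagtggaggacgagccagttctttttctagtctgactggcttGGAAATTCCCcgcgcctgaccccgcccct
Cxcl10: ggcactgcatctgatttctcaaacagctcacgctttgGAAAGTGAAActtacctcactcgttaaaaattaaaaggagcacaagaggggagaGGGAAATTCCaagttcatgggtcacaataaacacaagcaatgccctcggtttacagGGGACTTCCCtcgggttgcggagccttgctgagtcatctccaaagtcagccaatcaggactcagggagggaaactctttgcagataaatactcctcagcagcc
Ifit1: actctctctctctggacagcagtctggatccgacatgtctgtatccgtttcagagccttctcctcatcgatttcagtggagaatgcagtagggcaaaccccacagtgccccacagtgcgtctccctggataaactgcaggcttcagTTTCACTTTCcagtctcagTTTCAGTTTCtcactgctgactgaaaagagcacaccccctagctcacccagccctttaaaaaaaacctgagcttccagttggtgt
Gbp5: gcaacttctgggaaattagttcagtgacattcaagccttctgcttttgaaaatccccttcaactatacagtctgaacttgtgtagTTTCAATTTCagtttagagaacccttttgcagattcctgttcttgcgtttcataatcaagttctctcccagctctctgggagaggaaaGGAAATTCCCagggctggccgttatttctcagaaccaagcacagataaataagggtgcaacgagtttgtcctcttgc
The window of Nfkbia holds the kappaB letters at −212 and −29, counted from the gene start, and no ISRE letters. Cxcl10 holds kappaB at −159 and −103 and ISRE at −213, Gbp5 holds kappaB at −77 and ISRE at −165, and Ifit1 holds ISRE at −104 and −85. A match describes letters and not a bound site. For the genes changed at least 4-fold no share is given, since only 68.2% of the higher and 55.6% of the lower genes had a promoter in the table.

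Of 26 cytokine genes 20 rose and 3 fell, with a median of 3.82, or 3.66 with the 3 members that had no count in unstimulated cells set to the fold against the floor. Tnf was at 118, 62.9 and 68.7 CPM unstimulated and at 2010, 1980 and 1980 CPM with LPS/5z7 (4.58 ± 0.22, adjusted p = 1.47e-11, edgeR). Il1b, the inflammasome-processed interleukin-1 beta, rose from 42, 19.2 and 20.3 to 806, 691 and 674 CPM (4.73 ± 0.26), and Il1a from 5.32, 2.04 and 2.12 to 210, 159 and 145 CPM (5.76 ± 0.28). For these 3 genes library 10 was the highest unstimulated library and still lay far below every LPS/5z7 library. Il10, an anti-inflammatory cytokine, rose from 1.4, 0.51 and 0.816 to 14.1, 9.89 and 7.84 CPM (3.56 ± 0.26). Il27, a regulator of T cells (8.23 ± 0.25), Il15, a growth factor of NK cells (4.14 ± 0.15), and Csf1, which encodes M-CSF (3.85 ± 0.12), rose with them. Il23a, the p19 chain of interleukin-23, stayed low, at 0.492, 0.512 and 0.919 CPM against 0, 0.118 and 0.0408 CPM, a ratio of 11.3 (95% counting interval 4.08 to 43.7), although its partner chain Il12b rose above 100 CPM. Csf2, the GM-CSF gene, had no count in unstimulated cells and 0.378, 1.02 and 0.919 CPM with LPS/5z7, which is at least 6.38-fold higher against a floor of 3 counts per library.

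The 3 cytokine genes that fell were Osm, Vegfa and Gdf15. Osm, an interleukin-6 family cytokine, was at 10.2, 11 and 11.4 CPM unstimulated and at 0.87, 0.974 and 0.919 CPM with LPS/5z7 (−3.56 ± 0.17). Vegfa, the vascular growth factor gene, fell from 61.3, 56.2 and 52.7 to 14.9, 14.2 and 15.6 CPM (−1.93 ± 0.14), and Gdf15, a stress-induced cytokine, from 18.6, 13.8 and 9.46 to 3.44, 3.18 and 2.7 CPM (−2.15 ± 0.22). The 3 LPS/5z7 libraries lay below the 3 unstimulated ones for each (adjusted p at most 2.34e-07, edgeR). Lif (0.88 ± 0.45) and Inhba, a chain of activin (−0.33 ± 0.51), were not called.

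Of 16 chemokine genes tested, out of 18 listed, 15 rose and 0 fell, and the median of 5.69 was the highest of the 43 lists. Cxcl10, an interferon-inducible chemokine, rose from 25, 10.6 and 11 to 3950, 2450 and 2590 CPM (7.59 ± 0.32). Ccl22, a ligand of CCR4, rose from 0.206, 0.236 and 0.326 to 32.8, 32.3 and 35.3 CPM (7.00 ± 0.24), Cxcl3, a neutrophil chemokine, from 0.412, 0.196 and 0.204 to 27.3, 30.8 and 28.4 CPM (6.71 ± 0.24), and Ccl3 from 35, 30.6 and 27.5 to 701, 623 and 647 CPM (4.40 ± 0.17). Library 12 had the highest LPS/5z7 level of Cxcl10, whose change was 7.33 without that library. Ccl6 was the member not called, at 153, 141 and 138 and 189, 184 and 189 CPM (0.38 ± 0.18, adjusted p = 0.0889, edgeR). Chemokine receptors were split, with 3 of 8 tested members higher and 5 lower. Ccrl2, an atypical receptor that presents chemerin (3.88 ± 0.16), Ccr3 (1.18 ± 0.09) and Ccr1 (0.67 ± 0.13, and 0.24 and not called with library size alone) rose, and Cxcr4, Cx3cr1 (−1.80 ± 0.09) and Ccr2, the monocyte receptor for CCL2 (−1.33 ± 0.15), were among those that fell.

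**Figure D3:**
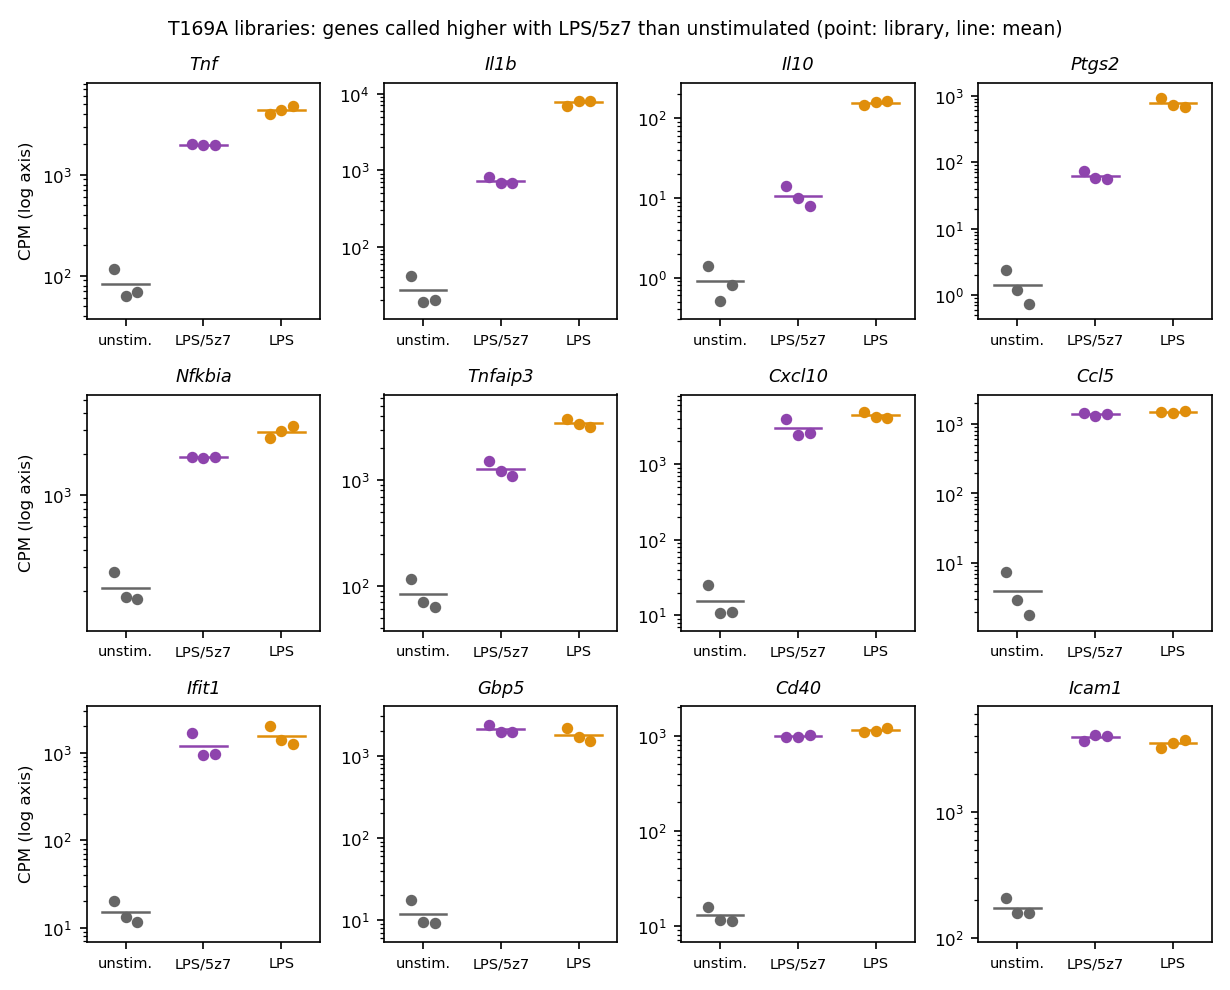
CPM (log axis) of 12 genes called higher with LPS/5z7 than unstimulated, with 1 point per T169A library and a line at the mean of 3; grey, unstimulated; purple, LPS/5z7; orange, LPS alone. The purple points lie above the grey ones in every panel, and Il1b (806, 691 and 674 CPM with LPS/5z7) lies well below the orange points while Icam1 does not.

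Ifnb1, the interferon-beta gene, was at 0.0824, 0 and 0 CPM unstimulated and at 12.1, 7.63 and 9.37 CPM with LPS/5z7, a ratio of 370 (95% counting interval 102 to 3060). Irf1, a transcription factor of both NF-kB and interferon responses, rose from 90.3, 71.1 and 73.2 to 1930, 1650 and 1630 CPM (4.47 ± 0.13). Of 19 genes tested for interferons, IRFs, STATs and their kinases 16 rose and 0 fell, with a median of 0.84 (12 higher and 2 lower with library size alone). Jak2, the kinase of many cytokine receptors, rose by 3.90 ± 0.15 and Stat2, a subunit of the factor that binds ISRE sites, by 2.44 ± 0.09, and Irf8 and Irf2 were not called (0.26 ± 0.18 and 0.05 ± 0.13).

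All 41 antiviral genes that interferon induces were higher, also with library size alone, with a median of 2.72. Mx2 rose from 4.25, 3.93 and 3.35 to 443, 321 and 318 CPM (6.55 ± 0.18) and Mx1 from 17.2, 12.8 and 10.5 to 1450, 861 and 923 CPM (6.32 ± 0.25). Both encode GTPases that trap viral proteins. Ifit1, which binds viral RNA and whose promoter is shown above, went from 20.1, 13.1 and 11.5 to 1660, 932 and 965 CPM (6.31 ± 0.29). Library 12 was the highest for all 3 genes, and the change of Mx1 was 6.03 without it. Trim21, a receptor for antibody on viruses (3.30 ± 0.13), and Daxx, a histone chaperone (3.04 ± 0.12), rose too. Of 14 guanylate binding proteins and immunity-related GTPases, which attack the vacuoles of microbes, 13 rose and 0 fell, with a median of 4.23. Gbp5 rose from 17.4, 9.5 and 9.14 to 2350, 1930 and 1940 CPM (7.43 ± 0.27), Gbp3 by 4.16 ± 0.20, Igtp by 3.63 ± 0.18 and Irgm2 by 3.31 ± 0.17, and Gbp8 was not called, at 1.77, 1.3 and 1.39 and 1.06, 0.922 and 1.29 CPM. Members of these families are near-identical in parts, and how reads that match several genes were counted is not given in the sources used here.

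Genes of antigen presentation followed, with 19 of 21 higher, 0 lower and a median of 1.24 (15 higher and 1 lower with library size alone). Tap1, the peptide transporter of MHC class I, rose from 54.1, 54.4 and 53.2 to 302, 246 and 250 CPM (2.30 ± 0.13), Tapbp, which loads the peptides, from 310, 274 and 271 to 890, 795 and 813 CPM (1.55 ± 0.09), and H2-M2 by 3.07 ± 0.18. H2-DMa and H2-DMb1, which load MHC class II, were not called (0.17 ± 0.14 and 0.05 ± 0.13). All 22 tested surface and costimulatory genes were higher, with a median of 2.95 (20 with library size alone). Cd40, the receptor for CD40 ligand of T cells, rose from 15.7, 11.4 and 11.3 to 981, 966 and 1020 CPM (6.27 ± 0.16), Vcam1 from 1.94, 0.982 and 1.26 to 203, 190 and 197 CPM (7.14 ± 0.20) and Icam1, like Vcam1 an adhesion molecule for integrins, from 206, 156 and 157 to 3660, 4100 and 4050 CPM (4.51 ± 0.15). The lowest LPS/5z7 library of each of these 3 genes was over 17-fold above the highest unstimulated one. Sdc4, a surface proteoglycan, went from a mean of 207 ± 56.9 to 5570 ± 430.0 CPM (SD, n = 3; 4.75 ± 0.18).

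Of 31 tested inflammatory effector genes 28 rose and 1 fell, with a median of 3.89. Ptgs2, the inducible cyclooxygenase, rose from 2.35, 1.18 and 0.734 to 74.4, 58.1 and 54.7 CPM (5.46 ± 0.30) and Ptges, the synthase that makes prostaglandin E2 from its product, from 5.07, 3.49 and 3.79 to 74, 82.3 and 78 CPM (4.24 ± 0.12). Saa3, an acute phase protein, rose from 4.91, 3.49 and 3.59 to 270, 307 and 332 CPM (6.24 ± 0.47), Tarm1, a receptor of myeloid cells, by 5.28 ± 0.17 and Sod2, the mitochondrial superoxide dismutase, by 3.23 ± 0.11. The member that fell was Plau, the urokinase gene, at 249, 241 and 235 CPM unstimulated and at 61.3, 60.9 and 51.3 CPM with LPS/5z7 (−2.06 ± 0.13, adjusted p = 2.83e-10, edgeR). It thus went the other way from Plat, the tissue type activator named above. Mmp9, a matrix protease (0.65 ± 0.29), and Ass1 of arginine synthesis (0.57 ± 0.24) were not called by edgeR. Mmp9 was called by DESeq2 (0.65), and Ass1 by edgeR without LPS/5z7 library 15 or 18 or unstimulated library 10 (0.70, 0.71 and 0.70).

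AP-1 and the immediate early genes did not rise as lists, unlike the inflammatory genes. Of 16 AP-1 subunits 6 rose and 5 fell, with a median of 0.13. These counts lie near the 28.1% higher and 27.5% lower of all genes. Fos was at 234, 230 and 240 CPM unstimulated and at 9.76, 6.51 and 6.43 CPM with LPS/5z7 (−4.94 ± 0.16), and Jun went from 124, 120 and 94.5 to 11.4, 8.97 and 7.47 CPM (−3.59 ± 0.15). The groups were separated by a wide gap in both. Batf (3.34 ± 0.22), Batf2 (2.94 ± 0.19), Mafk (1.89 ± 0.12) and Maff (1.58 ± 0.19) rose, and Atf3 was not called (−0.15 ± 0.12), except without library 12 (−0.37) or with library size alone (−0.57). Of 29 immediate early genes of the EGR, IER, NR4A and related families 10 rose and 16 fell, with a median of −0.71 (5 higher and 17 lower with library size alone). Gadd45b, a stress-induced regulator of MAP kinases (4.78 ± 0.17), Nr4a3, an orphan nuclear receptor (4.20 ± 0.23), and Csrnp1 (3.96 ± 0.10) rose, whereas Plk3, a stress kinase (−3.97 ± 0.20), Nr4a1 (−2.14 ± 0.16), Myc (−1.95 ± 0.26), Id2, an inhibitor of helix-loop-helix factors (−1.69 ± 0.10), and Egr1 (−1.68 ± 0.15) fell. Within the NR4A family the members thus moved in opposite directions.

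The phosphatases and sprouty proteins that hold back MAP kinases were as mixed, with 6 of 15 tested members higher and 7 lower and a median of −0.60. The shares over all genes were 28.1% higher and 27.5% lower. Dusp2 rose from 9.48, 4.63 and 4.12 to 327, 356 and 360 CPM (5.84 ± 0.29) and Dusp16 by 2.71 ± 0.27. Dusp6, the ERK phosphatase, fell from 23.7, 24.5 and 21.3 to 1.25, 1.02 and 0.735 CPM (−4.48 ± 0.17) and Spry2 from 9.77, 10.3 and 11.7 to 1.85, 1.43 and 2.33 CPM (−2.51 ± 0.20). Dusp1, the phosphatase of p38 and JNK, was at 114, 102 and 98.4 CPM unstimulated and at 54.1, 68.4 and 53.3 CPM with LPS/5z7 (−0.84 ± 0.18, adjusted p = 0.000815, edgeR). All 3 treated libraries lay below the unstimulated ones, although LPS alone put Dusp1 at 825, 1050 and 1000 CPM. Of 11 factors of cytokine mRNA decay 5 rose and 3 fell. Zc3h12a, the RNase regnase-1, rose from 48.8, 34.8 and 34.3 to 255, 277 and 277 CPM (2.78 ± 0.14) and Zfp36, which encodes tristetraprolin, from 265, 263 and 269 to 404, 409 and 408 CPM (0.62 ± 0.15, and 0.19 and not called with library size alone). The relatives of Zfp36 moved down, Zfp36l1 from 183, 192 and 187 to 11.9, 13 and 13.5 CPM (−3.88 ± 0.16) and Zfp36l2 from 235, 276 and 218 to 10.5, 11.7 and 14.9 CPM (−4.30 ± 0.15). Among 12 inhibitors of cytokine receptors 6 rose and 3 fell. Socs3, which blocks STAT3 signals, rose from 28, 12.7 and 10.8 to 1160, 1120 and 1060 CPM (6.02 ± 0.35), Cish by 5.97 ± 0.25 and Socs1 by 5.89 ± 0.27, and Inpp5d, the lipid phosphatase SHIP1, fell from 385, 383 and 380 to 124, 131 and 119 CPM (−1.62 ± 0.10).

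**Figure D4:**
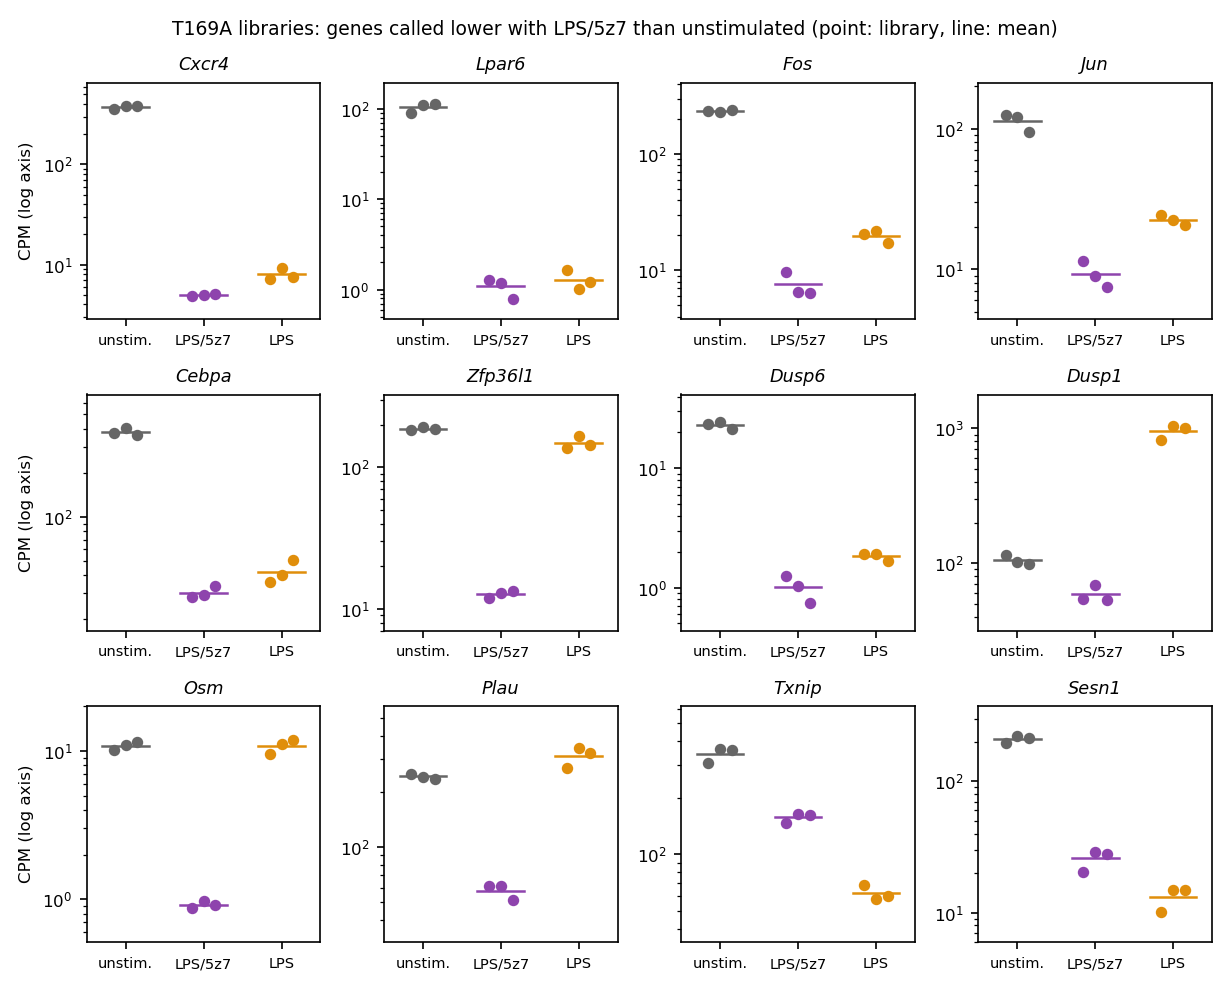
CPM (log axis) of 12 genes called lower with LPS/5z7 than unstimulated, with 1 point per T169A library and a line at the mean of 3; grey, unstimulated; purple, LPS/5z7; orange, LPS alone. The purple points lie below the grey ones in every panel; the orange points of Dusp1 lie above the grey ones (825, 1050 and 1000 CPM), and those of Txnip lie below the purple ones.

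Of 9 genes of RIPK1 and necroptosis 4 rose and 2 fell, with a median of 0.22 (4 higher and 3 lower with library size alone). The shares over all genes were 28.1% higher and 27.5% lower. Ripk1 was at 98.3, 96.1 and 90.7 CPM unstimulated and at 80.5, 65.3 and 67.9 CPM with LPS/5z7 (−0.42 ± 0.12, adjusted p = 0.00874, edgeR), with no overlap between the groups. A gene count cannot show which allele a library carries. Mlkl, the pore-forming effector of necroptosis, rose from 10.8, 8.87 and 8.61 to 43.9, 26.7 and 30.7 CPM (1.85 ± 0.17), Zbp1, a sensor that starts necroptosis, from 12.9, 11.6 and 9.83 to 89.1, 61.4 and 67 CPM (2.67 ± 0.23) and Cflar, which encodes the caspase-8 inhibitor cFLIP, from 167, 145 and 130 to 1290, 1010 and 955 CPM (2.88 ± 0.23). Ripk2, the kinase of NOD receptors, rose by 4.08 ± 0.12 and Fadd, the adaptor of caspase-8, fell by 0.48 on the log2 scale. Ripk3 (0.22 ± 0.13), Casp8 (0.08 ± 0.08) and Tradd (0.13 ± 0.15) were not called.

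Among 16 inflammasome and pyroptosis genes 9 rose and 3 fell, with a median of 0.88 (8 higher and 6 lower with library size alone). This and the next list stand beside 28.1% higher and 27.5% lower over all genes. Casp4, the intracellular LPS sensor caspase-11 of mice, rose from 45.5, 36 and 32.7 to 317, 259 and 261 CPM (2.87 ± 0.12), Mefv, the pyrin gene, by 3.26 ± 0.23, Casp1 by 1.58 ± 0.12 and Gsdmd, the pore-forming gasdermin, by 1.08 ± 0.11. Gsdme (−1.48 ± 0.17) and Nlrp1b (−0.84 ± 0.16) fell. Among 21 tested genes of the BCL2 family and the apoptosome 10 rose and 5 fell (7 higher and 8 lower with library size alone, and 3 lower without LPS/5z7 library 18 or unstimulated library 10). The survival genes Bcl2a1d (5.98 ± 0.18), Bcl2a1a (6.75 ± 0.26) and Bcl2a1b (3.36 ± 0.19) rose, and since they are near-identical copies the split of reads between them is uncertain. Bmf, a death-promoting BH3-only gene, fell from 41.1, 43.5 and 43.3 to 2.99, 4.77 and 3.25 CPM (−3.54 ± 0.16) and Casp9, the initiator caspase of the apoptosome, from 50.7, 57.8 and 56.7 to 19.1, 21.9 and 22.6 CPM (−1.38 ± 0.10). Mcl1, another survival gene, was not called, at 1110, 937 and 924 and 1090, 966 and 959 CPM (0.02 ± 0.10).

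Receptors of resting macrophages and of apoptotic cell uptake lay near the shares of all genes (28.1% higher and 27.5% lower). Of 40 tested members 13 were higher and 11 lower (8 and 20 with library size alone). Msr1, a scavenger receptor, rose from 294, 291 and 291 to 997, 910 and 895 CPM (1.68 ± 0.11), Fcgr2b, the inhibitory Fc receptor, by 1.60 ± 0.13 and Marco, another scavenger receptor, by 1.58 ± 0.15. Mertk, the receptor for apoptotic cells, fell from 238, 250 and 237 to 106, 107 and 99.7 CPM (−1.22 ± 0.11) and Gpr34, a lysophosphatidylserine receptor, by 1.78 on the log2 scale. The complement gene C1qb (0.39 ± 0.20) and the endocytic receptor Lrp1 (−0.48 ± 0.24) were not called. Among 33 transcription factors of the macrophage lineage 14 rose and 12 fell. Stat5a, activated by GM-CSF, rose from 25, 25 and 23.8 to 381, 368 and 357 CPM (3.91 ± 0.09), Tfec by 3.79 ± 0.11 and Nfil3 by 2.80 ± 0.25. Cebpa, a founding factor of myeloid cells, fell from 371, 402 and 363 to 28.3, 29.1 and 33.8 CPM (−3.64 ± 0.15), and Fli1 (−1.93 ± 0.10), the nuclear receptor Rxra (−1.76 ± 0.11) and Pparg of lipid metabolism (−1.58 ± 0.09) fell too. The largest adjusted p among these called genes was 8.15e-08 (edgeR).

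Smad7 and Smad6, inhibitors of TGF-beta and BMP signalling, fell. Smad7 went from 29.7, 29.8 and 32.8 to 4.35, 7.28 and 6.86 CPM (−2.34 ± 0.18) and Smad6 from 31.1, 30 and 25.3 to 3.25, 3.89 and 5.76 CPM (−2.77 ± 0.21), as did the repressors Ski (−1.39 ± 0.10) and Tgif1 (−1.28 ± 0.07), whereas Skil (0.39 ± 0.19) and the receptor gene Tgfbr1 (0.02 ± 0.20) were not called. In that list of 21 tested genes 4 rose, 7 fell and 10 were not called, with a median of −0.12. This is beside 28.1% higher and 27.5% lower over all genes, so the list as a whole lay near those shares. Without LPS/5z7 library 12 or unstimulated library 16 it held 2 higher. Among salt-inducible kinases and CREB partners 6 of 16 rose and 5 fell, near the shares of all genes (28.1% higher and 27.5% lower). Sik1 fell from 23.2, 21.7 and 20.7 to 7.83, 9.94 and 10.7 CPM (−1.21 ± 0.16), and Crtc2, a CREB coactivator that these kinases keep out of the nucleus, rose from 43.9, 43.4 and 44.9 to 104, 121 and 122 CPM (1.39 ± 0.10). Pde4b, which breaks down cyclic AMP, rose by 2.34 ± 0.28. Of the KLF factors Klf7 (2.94 ± 0.23) and Klf3 (1.52 ± 0.10) rose and Klf11 (−2.01 ± 0.15) and Klf4 (−1.40 ± 0.18) fell, in a list with 4 higher and 4 lower of 10 tested. Of 21 chromatin regulators 7 rose and 7 fell, also near the shares of all genes. Bcor, a corepressor of BCL6 (2.01 ± 0.13), and Brd2, a reader of acetylated histones (1.51 ± 0.08), rose, and Hdac5 (−1.23 ± 0.09), Kdm2b (−1.27 ± 0.11) and Jmjd1c (−1.37 ± 0.23) fell.

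In the list of glycolysis, hypoxia and TXNIP genes 8 of 22 tested rose and 3 fell (6 and 11 with library size alone). The counts of this paragraph stand beside 28.1% higher and 27.5% lower over all genes. Pfkfb3, which drives glycolysis, rose from 44.2, 41.4 and 39.7 to 320, 270 and 258 CPM (2.76 ± 0.16), Hk2 by 1.41 ± 0.12 and Pfkp by 1.23 ± 0.13. Txnip, which restrains glucose uptake, fell from 307, 364 and 360 to 147, 163 and 161 CPM (−1.13 ± 0.10). The abundant enzymes Pkm (0.12 ± 0.08) and Aldoa (0.07 ± 0.09) were not called. Slc7a11, the cystine transporter, rose from 14.9, 7.93 and 6.85 to 268, 188 and 191 CPM (4.45 ± 0.43) and Txnrd1, a thioredoxin reductase, by 2.06 ± 0.20, while other genes of the same NRF2 list fell, Osgin1 by 2.41 on the log2 scale and Hmox1, the heme oxygenase, by 0.55. That list held 7 higher and 4 lower of 17. Heat shock genes were higher in 9 of 14 and lower in 1 (5 and 3 with library size alone), with Hspa1b at 1.57, 0.942 and 0.857 and then 28.7, 34.4 and 35.4 CPM (4.87 ± 0.20) and its near-identical copy Hspa1a at 3.55 ± 0.15. In the integrated stress response list 7 of 15 rose and 4 fell. Atf4 (0.86 ± 0.12) and Ppp1r15a, the feedback phosphatase subunit GADD34 (1.99 ± 0.14), rose and Ddit3, which encodes CHOP (−0.98 ± 0.22), and Eif2ak3, which encodes PERK (−1.32 ± 0.11), fell. Of 21 cholesterol synthesis genes 7 rose and 4 fell, near those shares. Of 10 LXR targets Arl4c (−2.78 ± 0.14) and the cholesterol exporter Abcg1 (−0.60 ± 0.12) were among 4 lower, and Apoe was not called (0.21 ± 0.17). Of the p53 targets Cdkn1a, the cell cycle inhibitor p21, rose from 347, 331 and 320 to 2790, 2840 and 2810 CPM (3.08 ± 0.10) and Sesn1 fell from 195, 220 and 213 to 20.4, 29 and 28.2 CPM (−3.02 ± 0.18), within a list of 4 higher and 6 lower of 14 tested.

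Genes of DNA replication and mitosis were lower in 15 of 29 and higher in 4, with a median of −0.55 (21 lower and 3 higher with library size alone). The counts of this paragraph stand beside 27.5% lower and 28.1% higher over all genes. E2f2 (−2.37 ± 0.21), E2f1 (−0.98 ± 0.11) and Cdk1 (−0.86 ± 0.13) fell, while Mki67, the proliferation marker Ki-67, went from 41.4, 34.4 and 31.4 to 434, 385 and 364 CPM (3.46 ± 0.29) and Ccnd2, cyclin D2, from 6.14, 6.13 and 4.94 to 121, 87.7 and 85.1 CPM (4.09 ± 0.18). Ccnd1 went the other way from Ccnd2 (−1.21 ± 0.10). Numbered zinc finger genes, many of them transcriptional repressors, were lower in 143 of 314 tested and higher in 35, with a median of −0.38 (238 lower and 16 higher with library size alone). Zfp395 fell from 46, 48.3 and 46.3 to 3.48, 3.18 and 4.53 CPM (−3.66 ± 0.14), and Zfp811 rose from 0.206, 0.314 and 0.286 to 9.88, 9.74 and 10.9 CPM (5.21 ± 0.24). The direction of several housekeeping lists rested on the scaling. Cytosolic ribosomal protein genes were higher in 19 of 79 and lower in 0 (median 0.35), but in 1 and 1 with library size alone, in 72 higher in a fit on the 2 groups alone, and in 1 to 10 higher with any 1 of the 6 libraries left out (2 without LPS/5z7 library 12 or 18, 10 without 15, and 4, 1 and 10 without unstimulated library 10, 13 or 16). Oxidative phosphorylation genes were higher in 8 of 24 and lower in 0, against 0 and 7 with library size alone. Lysosome and V-ATPase genes were higher in 3 and lower in 5 of 23, against 0 and 19 with library size alone and 3 lower without LPS/5z7 library 15 or unstimulated library 13. Ribosome biogenesis genes were higher in 10 and lower in 6 of 23, against 2 and 11 with library size alone, and Rrs1, an assembly factor of the large subunit, rose by 2.28 ± 0.09.

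Solute carriers held 55 higher and 68 lower of 196 tested (35 and 118 with library size alone), beside 28.1% higher and 27.5% lower over all genes. Slc2a6, a lysosomal hexose transporter (3.88 ± 0.15), Slc7a2, an arginine transporter (4.55 ± 0.21), and Slc39a14, a zinc and iron importer (2.99 ± 0.14), rose, and Slc26a11 (−3.25 ± 0.13) and Slc45a4 (−2.03 ± 0.10) fell. Of the non-coding transcripts 5 of 14 were higher and 4 lower, near the same shares of all genes. Neat1, the scaffold of paraspeckles, fell from 1060, 1450 and 1450 to 564, 687 and 650 CPM (−1.06 ± 0.17) and Malat1 was not called (−0.18 ± 0.26). Predicted genes with Gm or Rik names held 296 higher and 400 lower of 1368 tested (−0.22 median), not far from those shares. Protein-coding genes made up 82.4% of the genes at least 4-fold higher, 70.7% of those at least 4-fold lower and 89.3% of all tested. These shares are of the genes matched in GENCODE M21 (93.6 to 98%). The protein-coding genes at least 4-fold higher had a median span of 21.2 kb and 8 exon blocks. Those at least 4-fold lower had 18.6 kb and 7, and all tested protein-coding genes 23.8 kb and 10.

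The response was also read over genes chosen in libraries that share none with this comparison. In B6 cells, 1894 genes rose at least 2-fold with LPS, and 1750 of them (92.4%) were called higher with LPS/5z7 in T169A, 2 lower and 142 neither, against 28.1% higher over all genes. Their median log2 fold change was 1.65 with LPS/5z7 (1.64 with the 39 genes without a count in 1 group at their bound), beside 1.91 with LPS alone in T169A. These genes fall into classes by what 5z7 did to them in B6. The 486 that 5z7 lowered in B6 were still higher than unstimulated in 448 cases (92.2%) in T169A, with a median of 1.41 beside 2.34 with LPS alone. For the 1360 genes not called for 5z7 in B6 the count was 1254 (92.2%), with medians of 1.68 and 1.80. The 48 genes that 5z7 raised further in B6 were all higher in T169A, with medians of 3.04 and 2.41. Of 2082 genes that LPS lowered at least 2-fold in B6, 1761 (84.6%) were lower with LPS/5z7 in T169A and 1 higher, against 27.5% lower over all genes, with medians of −1.20 and −1.51 with LPS alone. Of these, the 1579 genes not called for 5z7 in B6 were lower in 1299 cases (82.3%), with medians of −1.25 and −1.47. The 458 of them that 5z7 raised in B6 were lower in 417 cases (91.0%), with medians of −0.95 and −1.58, and the 45 that 5z7 lowered further were all lower, with −2.41 and −1.76. The box plot shows these classes.

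**Figure D5:**
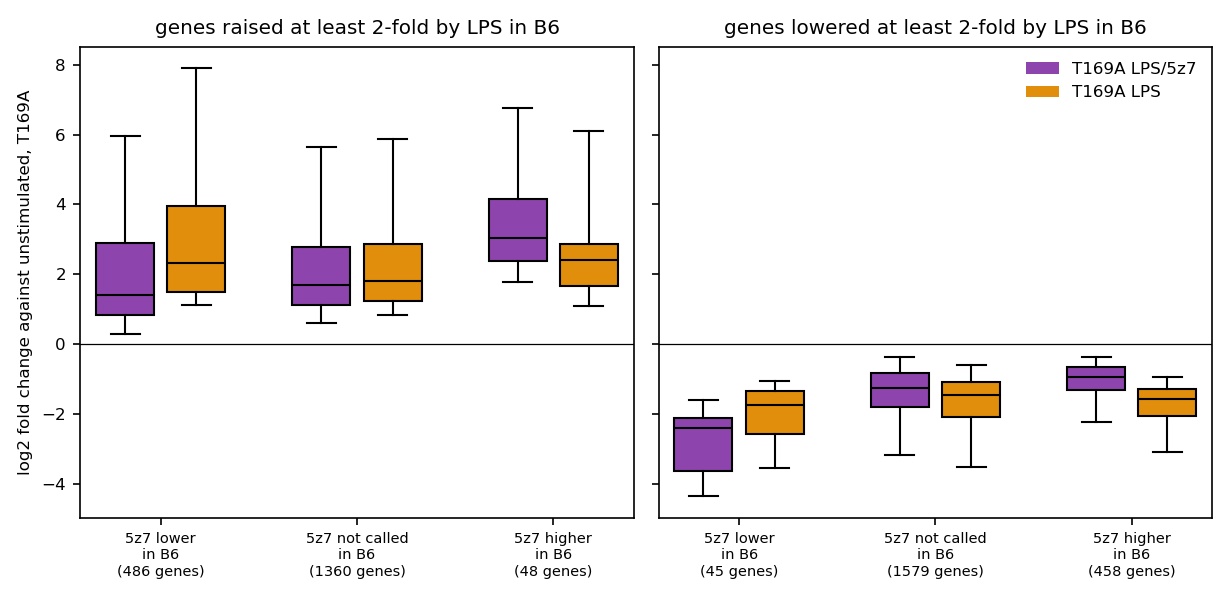
Log2 fold change against unstimulated T169A cells of genes raised (left) or lowered (right) at least 2-fold by LPS in B6, split by the call of LPS/5z7 against LPS in B6; purple, T169A LPS/5z7; orange, T169A LPS; boxes span the quartiles with a line at the median and whiskers from the 5th to the 95th percentile over genes. In the class of 486 genes the purple median (1.41) lies above 0 and below the orange one (2.34).

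A single number per library gave the same order. In unstimulated T169A libraries, the 914 genes with an LPS increase of 4-fold or more in B6 held 3.54, 3.09 and 2.96% of all counts, and they held 18.8, 17.2 and 17.1% in the LPS/5z7 libraries and 23.5, 22.4 and 22.1% in those with LPS alone. The means were 3.2 ± 0.306% and 17.7 ± 0.992% (SD, n = 3), a difference of 14.5 percentage points with no overlap (exact permutation test, two-sided, p = 0.1, the smallest that 3 against 3 libraries allow).

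Set beside the LPS libraries of T169A, which share the LPS/5z7 libraries with the comparison above, LPS/5z7 gave 850 higher genes (6.5% of those tested) and 853 lower ones (6.53%). Without LPS/5z7 library 18 these were 449 and 560, without LPS/5z7 library 15 they were 512 and 566, and without LPS library 14 the higher count was 485. Some genes that rose over unstimulated cells reached a small part of their LPS level. Il1b was at 806, 691 and 674 CPM against 6900, 7960 and 8080 CPM with LPS (−3.40 ± 0.24), Il10 at 14.1, 9.89 and 7.84 against 147, 159 and 163 CPM (−3.86 ± 0.20), Il1a at 210, 159 and 145 against 2390, 2550 and 2430 CPM (−3.84 ± 0.24) and Ptgs2 at 74.4, 58.1 and 54.7 against 907, 710 and 675 CPM (−3.61 ± 0.25). Cxcl2, a neutrophil chemokine (−3.10 ± 0.24), and Errfi1, an inhibitor of the EGF receptor (−3.61 ± 0.19), were of this kind. Tnf was at 2010, 1980 and 1980 against 4030, 4430 and 4770 CPM (−1.15 ± 0.19). Counted by list, 19 of 26 cytokine, 10 of 16 chemokine, 18 of 29 immediate early, 12 of 15 phosphatase and sprouty, 11 of 16 AP-1 and 15 of 31 effector genes were lower than with LPS.

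Other genes that rose were not called against LPS. Of 41 antiviral genes 38 were not called, 1 was higher and 2 lower, and of 14 guanylate binding proteins and related GTPases 14 were not called. Most genes tested were not called in this comparison (6.5% higher and 6.53% lower), so these counts lie near the background and show nothing particular to the lists. Gbp5 was at 2350, 1930 and 1940 CPM with LPS/5z7 and 2170, 1670 and 1500 CPM with LPS (0.22 ± 0.20), Ccl5 differed by −0.13 ± 0.29, Icam1 by 0.16 ± 0.13, Cd40 by −0.21 ± 0.13 and Irf1 by 0.13 ± 0.11. A p that misses the threshold does not show that these levels are equal, and Cxcl10 (−0.56 ± 0.24, adjusted p = 0.15, edgeR) was called lower than with LPS when library 12 was left out (−0.82). Cx3cl1, the ligand of CX3CR1, was at 10.7, 15.4 and 16 CPM with LPS/5z7, 3.92, 5.49 and 4.27 CPM with LPS and 0.742, 0.864 and 0.775 CPM unstimulated (1.62 ± 0.17 against LPS). Fscn1, the actin bundler fascin (1.12 ± 0.20), Efna2, an ephrin (1.56 ± 0.17), Fgl2, an immunoregulatory fibrinogen-like protein (1.21 ± 0.18), and Ticam2 (1.12 ± 0.09) did likewise. Ftl1-ps1, a pseudogene close in sequence to the ferritin gene Ftl1, also met the rule, but its LPS/5z7 levels were 3.86, 25.6 and 2.82 CPM, and without library 15 its change against unstimulated cells was −0.35 and no longer called. Its call against unstimulated cells was also lost by DESeq2 and without any 1 of the unstimulated libraries (1.18 to 1.43).

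A further set lay below both the unstimulated and the LPS level. Zfp36l1 was at 11.9, 13 and 13.5 CPM with LPS/5z7 against 136, 165 and 143 CPM with LPS (−3.54 ± 0.15), and Osm at 0.87, 0.974 and 0.919 against 9.52, 11.2 and 11.8 CPM (−3.55 ± 0.17). Plau was at 61.3, 60.9 and 51.3 against 268, 344 and 325 CPM (−2.43 ± 0.13), and Irs2, an insulin receptor substrate, at 13.3, 15.3 and 16.7 against 68.7, 66.4 and 67.9 CPM, with 46.9, 48.8 and 44 CPM unstimulated (−2.17 ± 0.18 against LPS). The LPS/5z7 libraries of these 4 genes lay below every unstimulated and every LPS library. Dusp1 (−4.03 ± 0.20), Gdf15 (−2.67 ± 0.22), Spry2 (−2.59 ± 0.20) and Myc (−1.90 ± 0.26) were of this kind too. Conversely, Txnip at 147, 163 and 161 CPM lay between 307, 364 and 360 CPM unstimulated and 68.7, 57.4 and 59.6 CPM with LPS (1.34 ± 0.10 against LPS), and Sesn1 (0.97 ± 0.18), the glucocorticoid-induced Tsc22d3 (1.08 ± 0.19) and the ion channel gene Calhm2 (1.03 ± 0.10) also fell less than with LPS. Of the zinc finger genes 92 of 314 were higher and 9 lower than with LPS, beside 6.5% higher and 6.53% lower over all genes. The largest adjusted p against LPS in this paragraph was 0.00184 (edgeR).

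The LPS/5z7 response of T169A was tested against that of B6 by the difference of the changes. B6 had 3610 genes higher (27.6%) and 3647 lower (27.9%) with LPS/5z7 than unstimulated. No gene was called for the difference by edgeR (0 of 13068, smallest adjusted p 0.83), 461 genes (3.53%) had an unadjusted p under 0.05, and DESeq2 called 2, with 437 at an unadjusted p under 0.05. The gene of those 2 with a symbol, Ptges, rose more in T169A by 0.79 on the log2 scale (adjusted p = 0.0083, DESeq2). It went from 4.12 ± 0.837 to 78.1 ± 4.12 CPM in T169A and from 7.48 ± 0.658 to 82.4 ± 5.81 CPM in B6 (SD, n = 3). By edgeR the difference of its changes was 0.79 ± 0.16 and was not called (adjusted p = 0.83). This does not show that the genotypes respond alike.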

How the data were processed

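RNA was extracted with TRIzol and made into TruSeq stranded libraries, per the labels' protocols. The authors deposited raw gene-level read counts; per the submitters' processing notes, reads were handled by Trim Galore, STAR and featureCounts with build GRCm39, without stated versions. The strand setting is not given in the sources used here, so antisense and overlapping genes cannot be told apart. Columns were assigned to groups by their names. Of 56953 genes 31172 had no count and 13068 passed filterByExpr. Counts were scaled by TMM and fitted with 6 group means over 18 libraries by edgeR 4.0.16 (quasi-likelihood, R 4.3.3), with a Benjamini-Hochberg adjusted p under 0.05. DESeq2 1.42.0, other scalings, filters and left-out libraries were alternatives. The procedure was also run on simulated counts in which few genes were set to differ between the compared groups. That run cannot test the scaling where many genes change, as here. Depth was 17 to 29.5 M counts in the T169A libraries, and intervals on counts cover counting error only. Symbols came from GENCODE M21 (91.4% of identifiers). Genes named were, for each list, the 4 members with the smallest p in each direction and the 2 most abundant not called, the 12 largest changes in each direction at 10 CPM or more, the 8 largest against LPS, the 8 smallest p between genotypes, the 10 most abundant and a fixed set, of which examples are printed and some are not reported here; Ifit1 was added after its values were seen. The comparison, members and lists were chosen with earlier results of these data known.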

Additional observations from a re-analysis of the deposited data

How the results depend on the processing

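With library size alone as the scaling, LPS/5z7 gave 1975 higher and 6999 lower genes against unstimulated. At least 2-fold, these were 1114 and 2886. Against LPS that scaling gave 2177 higher and 530 lower. Under that scaling 12 of 464 single results took the opposite sign: Smad4 −0.09, Tgfbi −0.25, Atp5b −0.05, Srebf1 −0.09, Pcna −0.13, Atp6v1h −0.04, Npc2 −0.07, Bop1 −0.03, Rpl4 −0.11, Rpl5 −0.07, Rpl7 −0.07 and Slc30a1 −0.08. Ftl1-ps1 did so without LPS/5z7 library 15 (−0.35; up to 1.73 with another library left out). With 1 library left out, 3215 to 3454 genes were higher and 3121 to 3402 lower than unstimulated, and 449 to 795 higher and 560 to 839 lower than with LPS. A fit on the compared groups alone gave 562 higher than with LPS. DESeq2 called 2 genes for the difference between genotypes. The share of counts differed by 19.8 points with a fold minimum of 2 and by 9.68 with 8. The cause of these shifts was not tested. Sample titles share replicate letters across treatments, but the column names carry running numbers and no letters, so columns could be matched to letters by order alone and the pairing was not established. A replicate block by sets of consecutive running numbers gave 4027 higher and 3924 lower than unstimulated and 1166 and 1174 against LPS. In their deviations from the group means, libraries of a set correlated at 0.16, 0.04 and 0.08 between unstimulated and LPS/5z7. Between LPS and LPS/5z7 they correlated at 0.43, 0.07 and 0.21. For libraries of different sets the values were −0.15 to 0.08 and −0.33 to 0.14. Whether the sets mark a pairing was not tested. Genes under the floor of 3 counts were limited by depth.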
